A study of Mus musculus with 8 samples.

Results

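The genes described here encode enzymes and carriers that break down amino acids in mouse liver and turn their nitrogen into urea (amino acid catabolism, urea cycle). They were taken as a list of 41 gene symbols, matched to the array's transcript clusters (its unit for a gene) through the platform annotation, with no filter on signal. Of the 41, 38 matched, through 39 of 35556 clusters, and all 38 lay among the 12443 gene rows that were bright enough to be tested. Gls2, Sds and Sdsl were not analysed here. The pair of clusters for Ass1 is annotated to Gm5424 as well, so its signal cannot be assigned to Ass1 alone.

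All mice were male C57Bl/6J. The HFD+As group ate a high-fat diet (HFD) with 42% of its calories as fat and drank deionized water with sodium arsenite that gave 3 mg inorganic arsenic (iAs) per litre. The HFD group ate the same diet with plain deionized water. The LFD+As group drank the same arsenite on a low-fat diet (LFD) with 13% of calories as fat, and the LFD group ate that diet with plain water. The protocol gives 10 weeks of exposure and the source label 90 days. Each group had 10 mice. RNA was extracted from each liver, and RNA of 5 mice was pooled for each array, so a group has 2 arrays and the spread between them is that between pools, not mice. The study asked how arsenite and a high-fat diet act together on the liver, at a single arsenite level and a single time. In whole liver RNA, fewer cells of a type and less RNA per cell cannot be told apart.

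Amino acids not used for protein lose their nitrogen in the liver, mostly by transfer to glutamate or by deamination, and the urea cycle turns the released ammonia into urea. The carbon skeletons enter glucose, ketone body or energy metabolism through pathways particular to each amino acid. Hepatocytes carry nearly all of these steps, with the urea cycle and histidine breakdown richest around the portal vein. Many of the genes are known to respond to glucagon, glucocorticoids and dietary protein.

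Values are log2 signals, on which a negative difference means the lower signal in the group named first, and differences were tested with limma over all genes with Benjamini-Hochberg adjustment at 0.05. Array medians lay between 7.08 and 7.18, and arrays correlated across genes at 0.969 to 0.993, and within groups at 0.988 to 0.993. The 9 hepatocyte markers were bright on all 8 arrays, with summed linear signals of 137000 to 142000 in HFD+As, 144000 to 146000 in HFD, 139000 to 141000 in LFD+As and 142000 to 143000 in LFD. A second feature of the arrays bears on every comparison with HFD+As. The deviation of a gene from its mean followed the gene's genomic span (first to last base, introns included), with rank correlations across genes of -0.45 and -0.295 in the HFD+As arrays, 0.247 and -0.129 in HFD, 0.217 and 0.34 in LFD+As, and 0.342 and 0.127 in LFD. The genes described here had a median span of 24.6 kb, against 21.1 kb over all genes tested. Results are therefore also given with that trend subtracted from each array, and the part of the trend in them was not tested.

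Promoters of 5 of the histidine and proline genes are shown first, without those of Ftcd and Aldh4a1. The choice was made because Hal, Prodh and Amdhd1 had the largest falls in HFD+As against LFD. It also sets Prodh, which fell, beside its paralog Prodh2, which did not pass the test. Hal and Amdhd1 are neighbours on chromosome 10, with 0 protein-coding genes between them. The 250 bases before each start are given 5′ to 3′ along the gene, from RefSeq on assembly GRCm38.p6: Hal at chr10:93488518-93488767 on the plus strand, Amdhd1 at chr10:93540034-93540283 on the minus strand, Uroc1 at chr6:90333039-90333288 on the plus strand, Prodh at chr16:18089191-18089440 on the minus strand and Prodh2 at chr7:30493408-30493657 on the plus strand. Capitals mark motif matches.
Hal: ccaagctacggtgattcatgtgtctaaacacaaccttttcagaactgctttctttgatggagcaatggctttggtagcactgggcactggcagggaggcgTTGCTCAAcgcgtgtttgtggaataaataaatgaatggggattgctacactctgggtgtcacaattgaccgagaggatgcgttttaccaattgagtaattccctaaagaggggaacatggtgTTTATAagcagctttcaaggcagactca
Amdhd1: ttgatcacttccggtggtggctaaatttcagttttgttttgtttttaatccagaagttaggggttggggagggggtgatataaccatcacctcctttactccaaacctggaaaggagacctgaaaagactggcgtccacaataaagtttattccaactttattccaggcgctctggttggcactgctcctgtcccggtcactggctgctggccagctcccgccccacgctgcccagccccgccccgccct
Uroc1: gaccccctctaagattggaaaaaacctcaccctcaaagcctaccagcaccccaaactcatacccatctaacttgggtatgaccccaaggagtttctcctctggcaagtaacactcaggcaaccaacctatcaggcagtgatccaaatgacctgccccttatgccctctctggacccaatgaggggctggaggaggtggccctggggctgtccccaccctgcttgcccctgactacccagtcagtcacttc
Prodh: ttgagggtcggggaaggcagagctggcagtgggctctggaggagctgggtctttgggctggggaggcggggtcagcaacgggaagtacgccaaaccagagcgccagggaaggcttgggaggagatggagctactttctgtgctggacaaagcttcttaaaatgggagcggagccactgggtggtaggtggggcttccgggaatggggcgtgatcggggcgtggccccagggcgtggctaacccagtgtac
Prodh2: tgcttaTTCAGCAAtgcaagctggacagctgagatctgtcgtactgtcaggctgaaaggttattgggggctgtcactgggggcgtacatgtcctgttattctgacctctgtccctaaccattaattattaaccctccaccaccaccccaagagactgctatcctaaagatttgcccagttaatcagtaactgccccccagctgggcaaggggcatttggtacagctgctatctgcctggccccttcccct
Of 6 motifs searched on both strands, the C/EBP motif TTGCNNAA lay in Hal from base -150 to -143 and, on the opposite strand, in Prodh2 from -244 to -237, counted back from the start. The TATA motif TATAAA lay in Hal from -28 to -23, on the opposite strand. The glucocorticoid receptor motif TGTTCT, the CREB motif TGACG, the FOXA motif TGTTTNC and the HNF4 motif CAAAGT had no match in these 5 windows. Over 32851 promoters of the same length, 9.56% held TTGCNNAA, 12.4% TATAAA, 16.1% TGTTCT, 17.8% TGACG, 17.8% TGTTTNC and 12.6% CAAAGT. Among the 30 genes of the list with a promoter entry, 4 held TTGCNNAA, 4 TATAAA, 2 TGTTCT, 4 TGACG, 4 TGTTTNC and 3 CAAAGT. A match describes letters and no binding.

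In livers of mice given both the high-fat diet and arsenite, 11 of the 38 genes fell against LFD and 0 rose. The 11 were Hal, Prodh, Amdhd1, Ivd, Got1, Uroc1, Aldh4a1, Gpt2, Dbt, Kynu and Cps1, and their signals were 0.523 to 0.764 times those of LFD. They belong to histidine, proline, transamination, branched-chain, tryptophan and urea cycle steps, while none of the tyrosine or sulfur amino acid genes passed the test. Over all genes tested, 13.9% passed in this comparison (10.4% fell and 3.47% rose), against 28.9% of the list, each of which fell. An unadjusted p under 0.05 was found for 24 of the 38, against 30.3% of all genes. The median difference of the list was -0.35, against -0.09 over all genes, and 35 of 38 differences were below 0, against 65.3% of all genes. Both HFD+As arrays lay below both LFD arrays for 27 of the 38, against 40.5% of all genes, and above them for 2, Cdo1 and Csad, against 14.2%.

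**Figure D1:**
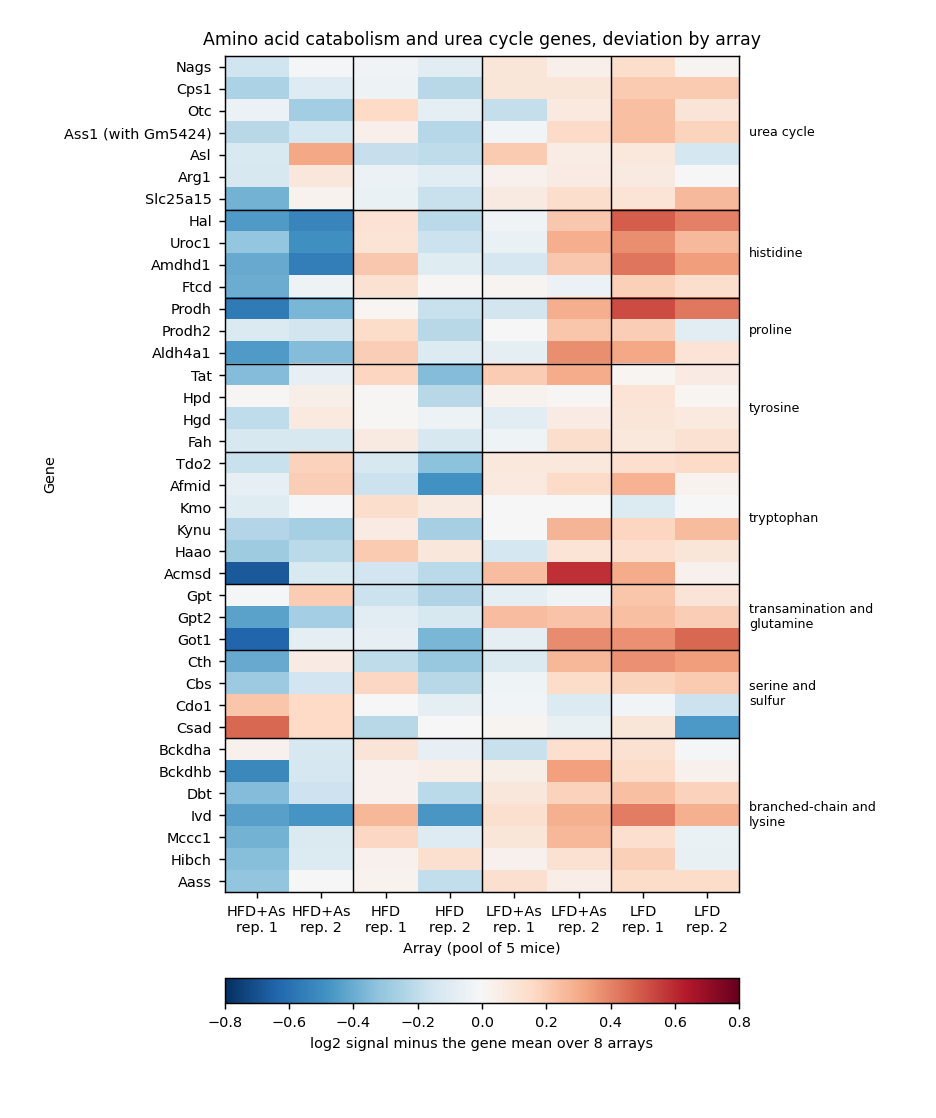
Deviation of each gene's log2 signal from its mean over the 8 arrays (colour, log2 units), with genes in rows by pathway and arrays in columns, each a pool of 5 mice. The HFD+As columns are mostly below the gene means, with a median deviation of -0.29 in replicate 1 and -0.11 in replicate 2, and the LFD columns above them, with 0.19 and 0.11.

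By array, the median deviation of the 38 genes from their own means was -0.29 and -0.11 in HFD+As, 0.03 and -0.18 in HFD, 0.01 and 0.14 in LFD+As, and 0.19 and 0.11 in LFD. HFD replicate 2 thus lay among the HFD+As arrays and HFD replicate 1 apart from it. HFD+As had the lowest group mean for 29 of the 38 genes, against 53.7% of all genes, and HFD for 7, against 12.1%. LFD had the highest mean for 25, against 29.3% of all genes, and LFD+As for 8, against 18.5%.

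The count of 11 rests on single arrays. It was 1 without HFD+As replicate 1, 1 without LFD replicate 1 and 5 without LFD replicate 2, and the gene in both counts of 1 was Hal. With any of the other 5 arrays left out it was 10 to 13, but not always of the same genes. Without HFD+As replicate 2, 6 of the 11 passed together with 5 other genes of the list, and Uroc1, Aldh4a1, Ivd, Kynu and Cps1 did not. Without either LFD+As array 9 of the 11 passed, and without either HFD array all 11 did. With the gene-span trend subtracted, 6 of the 11 still fell (Hal, Prodh, Amdhd1, Ivd, Uroc1 and Gpt2), Cdo1 rose, and the median difference was -0.16. It was 6 with no filter on dim genes and 7 with array medians made equal. With every transcript cluster tested, named or not, 0 genes of any kind passed in limma, although 6186 clusters had an unadjusted p under 0.05.

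**Figure D2:**
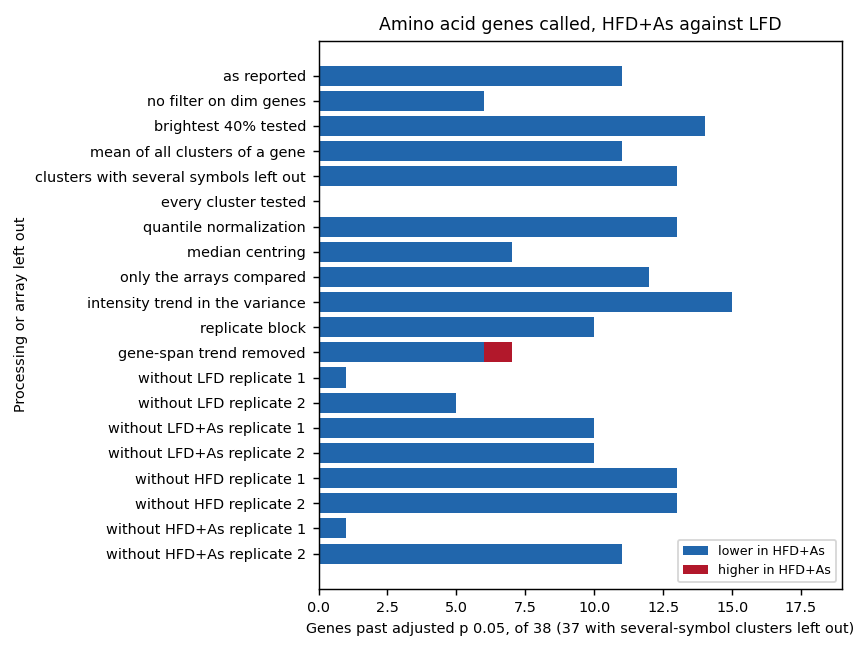
Number of the 38 genes past an adjusted p of 0.05 for HFD+As against LFD (horizontal axis) under each processing choice or with 1 array left out (rows), split by direction. Leaving out HFD+As replicate 1 or LFD replicate 1 leaves 1 gene, against 11 as reported.

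With diet alone most values were below 0 as well, and none passed the test. For HFD against LFD, 0 of the 38 genes passed the test in limma, where 0.265% of all genes did (0.0723% fell and 0.193% rose), and 15 had an unadjusted p under 0.05, against 9.93% of all genes. The differences ran down to -0.62, with a median of -0.20 against 0.01 over all genes, and 33 were below 0, against 46.9% of all genes. HFD arrays lay wholly below LFD arrays for 26 genes, against 16.2% of all genes, and wholly above for 1, Kmo, against 21.8%. The median was -0.34 without HFD replicate 1 and -0.10 without HFD replicate 2.

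For arsenite on the low-fat diet, 0 of the 38 passed in limma, where 0.00804% of all genes did, and 3 had an unadjusted p under 0.05 (Prodh, Hal and Amdhd1), against 3.09% of all genes. The median difference was -0.07, against -0.01 over all genes, and 26 were below 0, against 52.1% of all genes. LFD+As arrays lay wholly below LFD arrays for 14 genes, against 15.6% of all genes, and wholly above for 2, against 12.8%. For arsenite on the high-fat diet, 0 passed in limma, where 1.33% of all genes did (1.12% fell and 0.209% rose), and 11 had an unadjusted p under 0.05, against 25.7% of all genes. The median of -0.13 was close to the -0.12 of all genes, and 29 were below 0, against 70.9% of all genes. HFD+As arrays lay wholly below HFD arrays for 13 genes, against 44.8% of all genes, and wholly above for 6, against 11.9%. Without HFD replicate 2, Amdhd1, Hal and Ivd passed in that comparison and the median was -0.25, whereas it was 0.01 without HFD replicate 1.

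For diet under arsenite, HFD+As against LFD+As, 3 of the 38 fell and 0 rose, where 7.42% of all genes passed (5.91% fell and 1.51% rose). The 3 were Acmsd, Gpt2 and Hal. The median difference was -0.25, against -0.08 over all genes, and 34 were below 0, against 64.3% of all genes. HFD+As arrays lay wholly below LFD+As arrays for 25 genes, against 42.8% of all genes, and wholly above for 3, against 16.5%. The count of 3 was 0 with the gene-span trend subtracted, 0 when HFD+As replicate 1 or LFD+As replicate 2 was left out, and 9 when 1 of the HFD arrays was. The interaction, which is the arsenite difference on HFD minus that on LFD, passed for 0 of the 38 genes in limma and 0.0% of all genes, with 2 of the 38 and 13.1% of all genes at an unadjusted p under 0.05. Its median was -0.03 over the list and -0.12 over all genes, and 21 of the 38 values were below 0, against 67.1% of all genes.

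**Figure D3:**
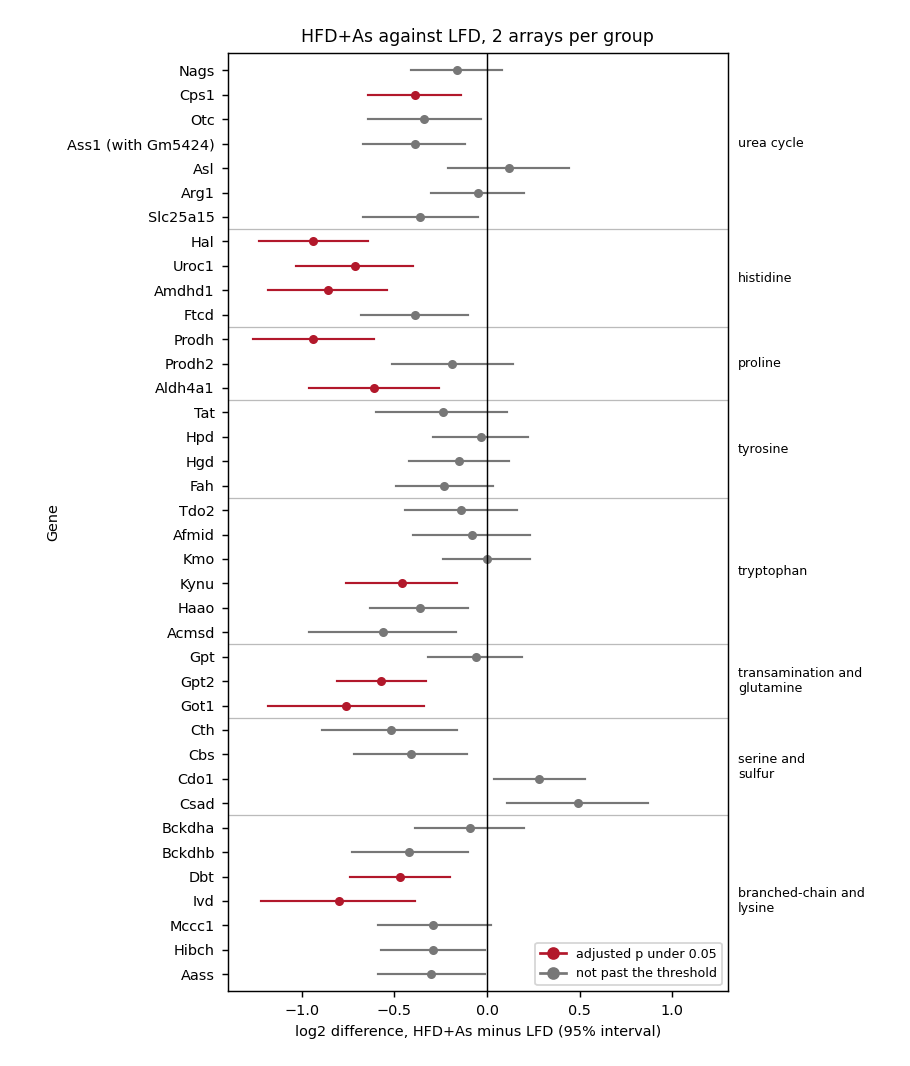
Log2 difference of HFD+As minus LFD for each of the 38 genes (horizontal axis) with its 95% interval from limma, 2 arrays per group, grouped by pathway. Red genes passed an adjusted p of 0.05; the lowest are Hal and Prodh at -0.94, and Csad at 0.49 is the highest and did not pass.

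The urea cycle fixes ammonia and passes it through ornithine, citrulline and arginine to urea. Of its 7 genes, 1 fell in HFD+As against LFD, or 14.3%, near the 10.4% of all genes that fell. Of the 7 differences, 6 were below 0, and the median was -0.34 against -0.09 over all genes. The gene that fell was Cps1, whose enzyme makes carbamoyl phosphate and sets the pace of the cycle. Cps1 log2 signals were 13.50 and 13.65 in HFD+As, 13.71 and 13.53 in HFD, 13.85 and 13.85 in LFD+As, and 13.96 and 13.96 in LFD. The arrays of both high-fat groups lay below those of both low-fat groups. The difference was -0.39 ± 0.11 (SE) for HFD+As against LFD, with a limma adjusted p of 0.0448, and -0.34 for HFD against LFD, with 0.345. The HFD+As call was lost with the gene-span trend subtracted (-0.14, adjusted p 0.365). It was also lost when any array of HFD+As, LFD or LFD+As was left out, with differences between -0.46 and -0.31. Cps1 spans 109 kb.

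Ass1 with Gm5424 (argininosuccinate synthase, the step that takes up aspartate) was read from the brighter of its 2 clusters. That cluster gave -0.39 for HFD+As against LFD and did not pass, at a limma adjusted p of 0.0568. Otc, which joins carbamoyl phosphate to ornithine, gave -0.34 in HFD+As against LFD. Slc25a15, the carrier that brings ornithine into mitochondria, gave -0.36, and Nags, which makes the activator of Cps1, gave -0.16. For these, HFD+As arrays lay below LFD arrays without passing the test. The last enzymes of the cycle overlapped between the groups, Asl (argininosuccinate lyase) at 0.12 and Arg1 (arginase) at -0.05. No urea cycle gene passed in the other comparisons.

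Histidine breakdown had the largest share of genes called. Hal removes ammonia from histidine to give urocanate, Uroc1 and Amdhd1 take the next steps in turn, and Ftcd passes the last carbon to folate. Of these 4, Hal, Uroc1 and Amdhd1 fell in HFD+As against LFD, where 10.4% of all genes fell. The median difference was -0.79, against -0.09 over all genes. Hal signals were 12.14 and 12.07 in HFD+As, 12.71 and 12.38 in HFD, 12.57 and 12.81 in LFD+As, and 13.08 and 13.00 in LFD. The HFD+As arrays were the lowest, the LFD arrays the highest, and the groups with a single exposure lay between and overlapped each other. Amdhd1 signals were 10.83 and 10.68 in HFD+As, 11.45 and 11.14 in HFD, 11.10 and 11.45 in LFD+As, and 11.66 and 11.57 in LFD. Its order was the same. Uroc1 signals were 10.50 and 10.32 in HFD+As, 10.92 and 10.64 in HFD, 10.76 and 11.10 in LFD+As, and 11.18 and 11.07 in LFD. Its HFD+As arrays were again the lowest, but 1 LFD+As array lay among those of LFD.

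Hal fell in HFD+As to 0.523 times the LFD signal, a log2 difference of -0.94 ± 0.14 (SE; limma adjusted p 0.00589). It was the only gene of the list to pass with each of the 8 arrays left out, where the difference ran between -0.98 and -0.89. With every transcript cluster tested its limma adjusted p was 0.0972. Amdhd1 fell to 0.551 times (-0.86 ± 0.15, limma adjusted p 0.00929) and Uroc1 to 0.610 times (-0.71 ± 0.14, limma adjusted p 0.0134). With the gene-span trend subtracted, the differences were -0.80 for Hal, -0.78 for Amdhd1 and -0.57 for Uroc1, and each still passed. Ftcd gave -0.39 and did not pass, at an adjusted p of 0.0714.

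Each exposure alone gave part of that difference, and none of these parts passed the test. For Hal, HFD against LFD gave -0.50 (limma adjusted p 0.219) and LFD+As against LFD gave -0.35. Arsenite on the high-fat diet gave -0.44 (limma adjusted p 0.0895) for Hal and -0.54 (0.0735) for Amdhd1. Diet under arsenite did pass for Hal, at -0.59 ± 0.14 (limma adjusted p 0.0351). That call was lost with the gene-span trend subtracted (adjusted p 0.0844) and when any array of HFD+As or LFD+As was left out. With single arrays left out the difference ran between -0.70 and -0.47. The interaction for Hal was -0.09, with a 95% interval of -0.51 to 0.33, so neither a larger nor a smaller arsenite difference on the high-fat diet was resolved.

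**Figure D4:**
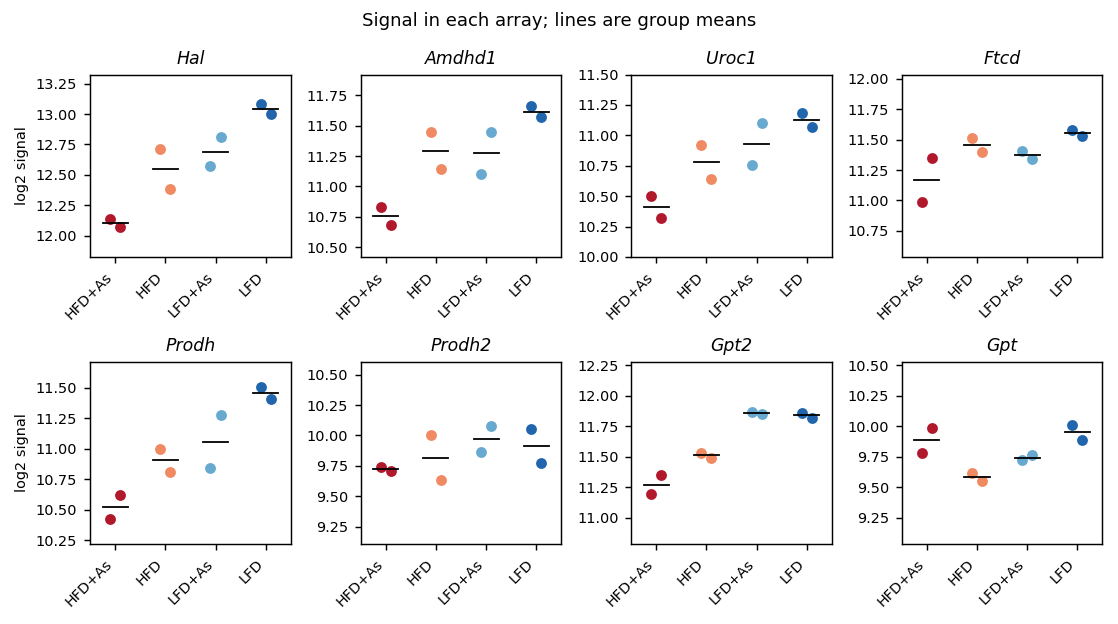
Log2 signal of selected genes in each array (points, 2 per group, each a pool of 5 mice) with the group mean as a line. For Hal the HFD+As arrays lie at 12.14 and 12.07 and the LFD arrays at 13.08 and 13.00.

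Proline is oxidised in mitochondria by Prodh and then to glutamate by Aldh4a1, while the Prodh2 enzyme oxidises hydroxyproline. Both steps of proline oxidation fell in HFD+As against LFD. That is 66.7% of the 3 proline genes, against 10.4% of all genes that fell. Prodh signals were 10.42 and 10.62 in HFD+As, 11.00 and 10.81 in HFD, 10.84 and 11.28 in LFD+As, and 11.51 and 11.41 in LFD. The HFD+As arrays lay below all others and the LFD arrays above all others. Aldh4a1 signals were 10.62 and 10.72 in HFD+As, 11.27 and 10.96 in HFD, 10.99 and 11.44 in LFD+As, and 11.38 and 11.18 in LFD. Here HFD+As lay apart, and the other 3 groups overlapped. Prodh fell by 0.94 ± 0.15 on the log2 scale (SE, limma adjusted p 0.00758) and Aldh4a1 fell by 0.61 ± 0.16 (limma adjusted p 0.0306). With the gene-span trend subtracted Prodh still passed (-0.85) and Aldh4a1 did not (-0.48, adjusted p 0.0729). The Aldh4a1 call was also lost when any array of HFD+As or LFD was left out, with differences between -0.71 and -0.51.

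Prodh2 was at 9.74 and 9.71 in HFD+As, 10.00 and 9.63 in HFD, 9.86 and 10.08 in LFD+As, and 10.05 and 9.77 in LFD. Its HFD+As arrays lay only just below those of LFD, and the difference of -0.19 did not pass (limma adjusted p 0.442). For Prodh, HFD against LFD gave -0.55 (limma adjusted p 0.219), LFD+As against LFD gave -0.40, and the interaction was 0.01 with a 95% interval of -0.45 to 0.47.

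The 4 tyrosine genes showed no call in any comparison. Tat, which transfers the amino group of tyrosine and sets the rate of its breakdown, was at 13.10 and 13.38 in HFD+As, 13.62 and 13.10 in HFD, 13.65 and 13.74 in LFD+As, and 13.46 and 13.51 in LFD. Its HFD arrays stood farther apart than any group means did. HFD+As minus LFD+As was -0.45 ± 0.16 (SE, unadjusted p 0.0172, limma adjusted p 0.101). The later enzymes Hpd, Hgd and Fah gave -0.03, -0.15 and -0.23 for HFD+As against LFD.

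The kynurenine pathway opens the ring of tryptophan and leads either to NAD or, through Acmsd, to oxidation. For its 6 genes the differences of HFD+As against LFD ran between -0.56 and 0.00, and Kynu, which cleaves kynurenine and hydroxykynurenine, fell. That is 16.7% of the 6, against 10.4% of all genes that fell. Kynu signals were 12.04 and 12.01 in HFD+As, 12.34 and 12.01 in HFD, 12.28 and 12.55 in LFD+As, and 12.45 and 12.53 in LFD. HFD replicate 2 equalled an HFD+As array at this rounding, and the low-fat arrays lay above both HFD+As arrays. The difference of -0.46 ± 0.14 (SE, limma adjusted p 0.0472) was lost with the gene-span trend subtracted (-0.20, adjusted p 0.319) and with 6 of the 8 arrays left out in turn. Kynu spans 128 kb.

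Acmsd, which steers the pathway away from NAD, fell in HFD+As against LFD+As. Its signals were 9.04 and 9.59 in HFD+As, 9.56 and 9.50 in HFD, 9.96 and 10.30 in LFD+As, and 10.01 and 9.75 in LFD. HFD+As replicate 1 was the lowest array by a wide margin, while replicate 2 lay close to the HFD arrays. The difference was -0.81 ± 0.18 (SE, limma adjusted p 0.0318), and between -1.09 and -0.54 with single arrays left out. It did not pass with the gene-span trend subtracted (-0.65, adjusted p 0.0799). HFD+As against LFD gave -0.56 for Acmsd, at an adjusted p of 0.0571.

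The other genes of the pathway gave values that did not pass. Tdo2, which opens the ring, gave -0.14 for HFD+As against LFD and -0.37 for HFD against LFD. Afmid, which acts next, gave -0.08 for HFD+As against LFD and -0.48 for HFD against LFD, and HFD+As minus HFD was 0.39 (limma adjusted p 0.129). The interactions of 0.29 for Tdo2 and 0.42 for Afmid did not pass either (limma adjusted p 0.506 and 0.4). Haao, an oxygenase near the end of the pathway, gave -0.36 for HFD+As against LFD (limma adjusted p 0.0653). Kmo, which hydroxylates kynurenine, gave a difference that rounds to 0.00 with a 95% interval of -0.24 to 0.23.

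Transaminases move amino groups between amino acids and glutamate. Gpt2, the mitochondrial alanine aminotransferase, and Got1, the cytosolic aspartate aminotransferase, fell in HFD+As against LFD. That is 66.7% of the 3 genes tested here, against 10.4% of all genes that fell. Gpt2 signals were 11.19 and 11.35 in HFD+As, 11.53 and 11.49 in HFD, 11.87 and 11.85 in LFD+As, and 11.86 and 11.82 in LFD. The arrays ordered by diet, the LFD+As and LFD arrays lay within 0.05 of each other, and HFD+As lay below HFD. Got1 signals were 11.28 and 11.84 in HFD+As, 11.85 and 11.55 in HFD, 11.84 and 12.29 in LFD+As, and 12.28 and 12.37 in LFD. The HFD+As arrays stood far apart, and replicate 2 lay within the range of HFD. Gpt2 fell by 0.57 ± 0.11 on the log2 scale against LFD (SE, limma adjusted p 0.0112) and by 0.59 ± 0.11 against LFD+As (limma adjusted p 0.0255).

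Got1 fell by 0.76 ± 0.19 against LFD (SE, limma adjusted p 0.0256), between -1.04 without HFD+As replicate 2 and -0.48 without replicate 1. With the gene-span trend subtracted, Gpt2 still passed against LFD (-0.41) but not against LFD+As (-0.43, adjusted p 0.0678), and Got1 did not pass (-0.64, adjusted p 0.0702). For HFD against LFD, Gpt2 gave -0.33 and Got1 -0.62, and neither passed. The cytosolic alanine aminotransferase Gpt gave -0.06 for HFD+As against LFD (limma adjusted p 0.763), with a 95% interval of -0.32 to 0.19.

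Of the sulfur amino acid genes, Cth and Cbs turn homocysteine into cysteine, and Cdo1 and Csad carry cysteine on towards taurine. Cth signals were 12.33 and 12.80 in HFD+As, 12.53 and 12.43 in HFD, 12.62 and 13.00 in LFD+As, and 13.10 and 13.07 in LFD. The LFD arrays were the highest, and the HFD+As arrays overlapped those of HFD and of LFD+As, which lay apart from each other. Cth had the smallest unadjusted p of the list for HFD against LFD, at -0.61 ± 0.16 (SE, limma adjusted p 0.219), and gave -0.52 for HFD+As against LFD (limma adjusted p 0.0552). Cbs gave -0.41 for HFD+As against LFD (limma adjusted p 0.071).

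The genes that carry cysteine towards taurine had positive differences. Csad signals were 10.23 and 9.93 in HFD+As, 9.55 and 9.77 in HFD, 9.79 and 9.71 in LFD+As, and 9.87 and 9.31 in LFD. Both HFD+As arrays were above all others. Csad gave 0.49 ± 0.18 for HFD+As against LFD (SE, limma adjusted p 0.0834), between 0.21 and 0.77 with single arrays left out. Cdo1 signals were 12.83 and 12.77 in HFD+As, 12.61 and 12.54 in HFD, 12.59 and 12.50 in LFD+As, and 12.59 and 12.44 in LFD. The HFD+As arrays were again the highest. Cdo1 gave 0.28 ± 0.11 (SE, limma adjusted p 0.114), and passed once the gene-span trend was subtracted.

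Branched-chain amino acids are oxidised in mitochondria by a dehydrogenase complex, of which Bckdha and Bckdhb form the first enzyme and Dbt the core. Ivd then acts on the leucine product, Mccc1 is a subunit of the next carboxylase, Hibch acts in valine breakdown, and Aass begins that of lysine. All 7 differences of HFD+As against LFD were below 0, with a median of -0.30. Ivd and Dbt fell, or 28.6% of the 7 against 10.4% of all genes. Ivd signals were 10.51 and 10.47 in HFD+As, 11.21 and 10.48 in HFD, 11.07 and 11.23 in LFD+As, and 11.35 and 11.23 in LFD. HFD replicate 2 lay between the HFD+As arrays and HFD replicate 1 among the low-fat arrays. Dbt signals were 11.12 and 11.30 in HFD+As, 11.50 and 11.25 in HFD, 11.56 and 11.65 in LFD+As, and 11.71 and 11.65 in LFD. The low-fat groups lay above both high-fat groups.

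Ivd fell by 0.80 ± 0.19 on the log2 scale (SE, limma adjusted p 0.0206) and still passed with the gene-span trend subtracted (-0.70). The Ivd call was lost when any array of HFD+As or LFD was left out, with differences between -0.86 and -0.74. Dbt fell by 0.47 ± 0.12 (SE, limma adjusted p 0.0305) and did not pass with the gene-span trend subtracted (-0.31, adjusted p 0.0842). For HFD+As against LFD, Bckdhb gave -0.42, Bckdha -0.09, Mccc1 -0.29, Hibch -0.29 and Aass -0.30, without passing.

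To set the arsenite difference on each diet side by side, pairs of groups that share no array were used. The sign was the same on both diets for 25 of the 38 genes, negative for 21 and positive for 4. That is 65.8% of the list (55.3% negative and 10.5% positive on both), against 50.0% of all genes tested (36.5% and 13.5%). Hal, Amdhd1, Uroc1 and Prodh were negative on both, while Acmsd and Tat had negative differences on the high-fat diet and positive ones on the low-fat diet. The Pearson correlation was 0.33 across the 38 genes and 0.08 across all genes tested, a description over genes that share arrays. Bckdhb had an interaction of -0.47 with a 95% interval of -0.92 to -0.02 (limma adjusted p 0.366).

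**Figure D5:**
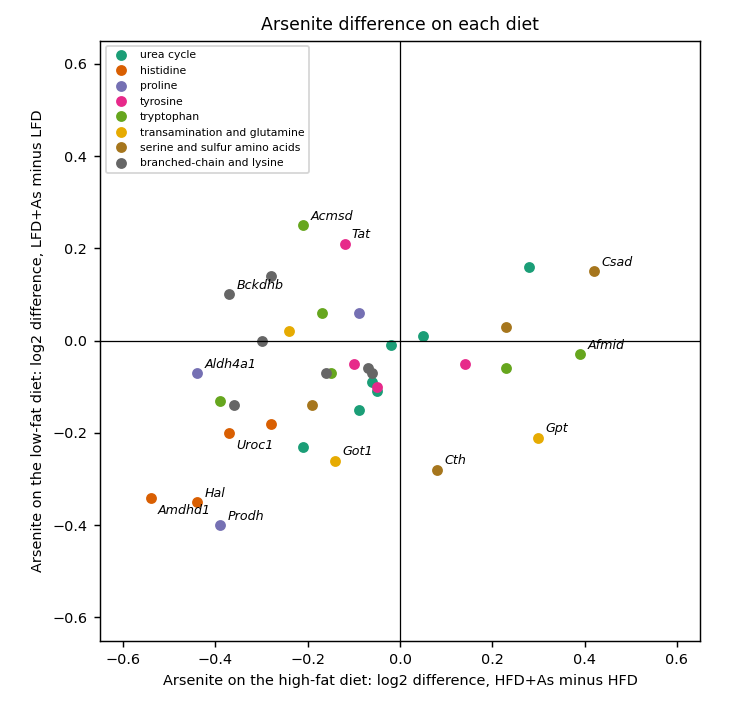
Log2 difference for arsenite on the high-fat diet (HFD+As minus HFD, horizontal axis) and on the low-fat diet (LFD+As minus LFD, vertical axis) for each of the 38 genes, coloured by pathway. Hal, Amdhd1 and Prodh lie at the lower left, negative on both diets, and 25 of 38 genes have the same sign on both.

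Other enzymes of the same pathways showed the same direction. Of 46 tested, 11 fell and 0 rose in HFD+As against LFD, or 23.9% against the 10.4% of all genes that fell, with a median of -0.27. Ddah1, which degrades methylated arginines, fell by 0.86 (limma adjusted p 0.00935). Dhtkd1 of lysine and tryptophan breakdown fell by 0.74 (limma adjusted p 0.0149), Ido2 of tryptophan breakdown by 0.70 (limma adjusted p 0.0100), and Qdpr, which regenerates the cofactor of phenylalanine hydroxylation, by 0.65 (limma adjusted p 0.0199). These 4 still passed with the gene-span trend subtracted. Ethe1, which oxidises sulfide carried over from cysteine, fell in HFD against LFD by 0.75 ± 0.12 (SE, limma adjusted p 0.0354). It made up 2.17% of the 46, where 0.0723% of all genes fell. With no filter on dim genes, or with every cluster tested, 0 genes of any kind passed in that comparison, so the call was lost. Ido2 fell in HFD+As against HFD by 0.61 (limma adjusted p 0.0468), where 1.12% of all genes fell. Ido2, Ddah1 and Agxt2 fell in HFD+As against LFD+As, or 6.52% of the 46, near the 5.91% of all genes. In the last of these comparisons, the 3 calls were lost with the gene-span trend subtracted, as was that of Ido2 against HFD (adjusted p 0.143).

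Of 10 genes of amino acid synthesis and of the ATF4 response tested, 2 fell and 1 rose in HFD+As against LFD, or 3 of 10 against 13.9% of all genes, and the median was -0.15 against -0.09. These were Sesn2 at -0.50, Phgdh (the first step of serine synthesis) at -0.39 and Pycrl (of proline synthesis) at 0.60, with limma adjusted p of 0.0436, 0.0491 and 0.0138. In the other pairwise comparisons 0 of these 10 passed in limma. An unadjusted p under 0.05 was found for 1 in LFD+As against LFD (3.09% of all genes) and 3 in HFD against LFD (9.93%). It was found for 3 in HFD+As against HFD (25.7%) and 5 in HFD+As against LFD+As (27.3%). Pycrl alone still passed with the gene-span trend subtracted.

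Among 23 regulators and responsive genes tested, 3 fell and 1 rose in HFD+As against LFD. The 13.0% that fell was near the 10.4% of all genes, of which 3.47% rose. Differences ran between -1.43 and 0.72, and the gene at -1.43 did not pass. Ppargc1a, a coactivator of fasting metabolism, was at 8.08 and 8.02 in HFD+As, 8.59 and 8.66 in HFD, 8.50 and 8.98 in LFD+As, and 9.11 and 8.70 in LFD. The HFD+As arrays were the lowest, and the fall of 0.85 ± 0.17 against LFD (SE, limma adjusted p 0.0121) was lost with the gene-span trend subtracted (0.0699). Foxa1, a factor that opens chromatin in liver, fell by 0.79 (limma adjusted p 0.00689) and passed in that setting too. Nr3c1, the glucocorticoid receptor, fell by 0.48 (limma adjusted p 0.0190), and Pck1, which makes glucose from amino acid carbon and responds to glucagon and glucocorticoids, rose by 0.72 (limma adjusted p 0.0445). Neither passed with the trend subtracted. Ppargc1a and Prox1 fell in HFD+As against LFD+As, by 0.69 and 0.58, or 8.7% of the 23 against 5.91% of all genes. Neither passed with the trend subtracted. For LFD+As against LFD, 0 of the 23 passed in limma, and 7 had an unadjusted p under 0.05, against 3.09% of all genes. Differences there ran between -1.39 and 0.85, with Foxa1 at -0.54 and Pck1 at 0.85 (limma adjusted p 0.421 and 0.485). For HFD against LFD, 0 passed and 6 had an unadjusted p under 0.05, against 9.93% of all genes. Foxa1 and Pck1 gave -0.40 and 0.64 there (limma adjusted p 0.29 and 0.334).

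Markers of liver zones and of other cell types were read beside these results for HFD+As against LFD. In that comparison 10.4% of all genes fell, 3.47% rose, and 30.3% had an unadjusted p under 0.05. The shares of pericentral (12.5%), stellate cell (12.5%) and macrophage (10.0%) markers that fell were near that of all genes. Apart from Hal and Pck1, markers with the gene-span trend subtracted are not reported here. Of 9 hepatocyte markers, 0 passed in limma (1 at an unadjusted p under 0.05). The 5 periportal markers, which include Hal itself, summed to a linear signal of 24100 to 25500 in HFD+As and 30300 to 30900 in LFD, with 2 lower (Hal, Cdh1) and 1 higher (Pck1). The 8 pericentral markers summed to 40500 to 44000 in HFD+As and 47800 to 47900 in LFD, with Rhbg lower. Of 7 sinusoidal endothelial markers 3 fell (Stab1, Stab2 and Kdr), with sums of 5280 to 6190 in HFD+As and 5820 to 6490 in LFD. Of 10 macrophage markers 1 rose (Marco) and 1 fell (Csf1r), with sums of 7700 to 9970 in HFD+As and 9630 to 9860 in LFD. Of 8 stellate cell markers 1 fell (Reln), with sums of 8080 to 8270 in HFD+As and 9850 to 10000 in LFD. S100a9, of 2 neutrophil markers tested, rose. Of the markers of lymphocytes, cholangiocytes, adipocytes, erythroid cells and exocrine pancreas, 0 passed in this comparison in limma (2 at an unadjusted p under 0.05). The signals have no true 0, so no marker can be called absent. In HFD+As against LFD+As, Rhbg (-1.19), Stab2 (-0.77), Kdr (-0.55) and the cholangiocyte marker Sox9 (-0.56) fell and S100a9 rose (0.64), beside Hal, and 0 of 10 macrophage markers passed in limma (3 at an unadjusted p under 0.05). In HFD+As against HFD, Stab2 fell (-0.73). There 0 of 10 macrophage markers passed in limma, and 7 had an unadjusted p under 0.05. Of the 10 differences 9 were below 0 and 1 above, with a median of -0.39 against -0.12 over all genes. HFD+As arrays lay wholly below HFD arrays for 7 of the 10 and wholly above for 1, against 44.8% and 11.9% of all genes. Over all genes 5.91% fell and 1.51% rose against LFD+As, and 1.12% fell and 0.209% rose against HFD. An unadjusted p under 0.05 was found for 27.3% of all genes against LFD+As and 25.7% against HFD. In HFD against LFD, no marker passed in limma. An unadjusted p under 0.05 was found for 4 of 10 macrophage markers, against 9.93% of all genes. Of these 10, 8 had HFD arrays wholly above LFD arrays, against 21.8% of all genes, with sums of 10900 to 11700 in HFD and 9630 to 9860 in LFD. The part of any of these cell types in the differences above was not tested.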

How the data were processed

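Liver RNA pools were measured on Mouse Gene 1.0 ST arrays. The deposited log2 signals came from the software Expression Console (version 1.0, by Affymetrix), as the submitters' processing notes record. The background correction, normalization and probe summary are not given in the sources used here. Of 35556 clusters, 21789 have 1 symbol in the platform annotation and 1621 several, which were kept under their joined name. The brightest cluster stood for its gene, and the brightest 60% of genes (12443, mean at least 6.98) were tested in 1 limma fit of the 4 group means to all 8 arrays (limma 3.58.1, R 4.3.3), with Benjamini-Hochberg adjustment. The fit was tested on simulated data. Precision is limited by the number of arrays, with a median SE of 0.126 for a difference. Alternatives are in the closing section. The genes, lists and comparisons were chosen with earlier results of these data known. Genes were named by a rule: in each pathway, array values for up to 3 genes with the largest change among those past the threshold, or for the one with the smallest p, and in other lists up to 4 passing genes or 2 by smallest p. Array values for Prodh2, Csad, Cdo1, Gpt, Kmo and Ppargc1a, and the 5 promoters, were added after the values were seen. Every difference is the first group named minus the second.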

Additional observations from a re-analysis of the deposited data

Results flagged for a closer look

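In 2 genes every array moved one way with arsenite on the high-fat diet and the opposite way on the low-fat diet, and likewise with diet under arsenite and without it. Gpt signals were 9.78 and 9.99 in HFD+As, 9.62 and 9.55 in HFD, 9.72 and 9.76 in LFD+As, and 10.01 and 9.89 in LFD. The HFD+As arrays were above HFD, and the LFD+As arrays below LFD. The arsenite difference on HFD minus that on LFD was 0.51 ± 0.17 (SE), with a 95% interval of 0.15 to 0.87, an unadjusted p of 0.00968 and a limma adjusted p of 0.307. The diet difference under arsenite minus that without it is the same contrast, at 0.51. Kmo signals were 12.52 and 12.60 in HFD+As, 12.76 and 12.69 in HFD, 12.62 and 12.62 in LFD+As, and 12.51 and 12.62 in LFD. HFD+As lay below HFD, and LFD+As at or above LFD. Kmo gave -0.23 ± 0.15 (SE) for either form of that contrast, with a limma adjusted p of 0.513. Neither passed the test.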

How the results depend on the processing

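With 2 arrays per group, most counts move with single arrays and with the filter. For HFD+As against LFD the count of 11 genes of the list was 6 with no filter on dim genes, 0 with every cluster tested, 7 with median centring, 7 with the gene-span trend removed, and 10 to 15 in the other settings with all arrays. Leaving out 1 array gave 1 to 13, with 1 without HFD+As replicate 1 or LFD replicate 1 and 5 without LFD replicate 2. For HFD+As against LFD+As the count of 3 was 0 with no filter, with every cluster, with median centring or with the span trend removed, 9 with the brightest 40% or with several-symbol clusters left out, 8 with an intensity trend in the variance, and 0 to 9 with 1 array left out. For HFD+As against HFD it was 0 to 3 with 1 array left out.

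The list's median varied between arrays of a group with an SD of 0.11. With 1 array left out it ran from -0.34 to -0.10 for HFD against LFD, -0.42 to -0.21 for HFD+As against LFD, -0.25 to 0.01 for HFD+As against HFD, -0.36 to -0.20 for HFD+As against LFD+As and -0.14 to 0.09 for the interaction. With the span trend removed it was -0.16 for HFD+As against LFD, 0.01 for HFD+As against HFD, -0.14 for HFD+As against LFD+As and 0.12 for the interaction. That removal moved the median of all genes from -0.09 to 0.00 for HFD+As against LFD and from -0.12 to 0.00 for HFD+As against HFD, and the split of all genes called for HFD+As against LFD became 508 higher and 471 lower, against 432 and 1293. The cause was not tested.

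Counts of all genes over the alternatives were 0 to 17 for LFD+As against LFD (1 as reported), 0 to 55 for HFD against LFD (33), 0 to 1909 for HFD+As against LFD (1725), 0 to 786 for HFD+As against HFD (165), 0 to 1307 for HFD+As against LFD+As (923) and 0 to 4 for the interaction (0). The 14 single-gene calls kept their sign in all 266 results beside the reported ones and passed the threshold in 182. Whether same-numbered arrays deviate together was checked. Their correlations ran from -0.153 for HFD with LFD+As to 0.303 for HFD with LFD. The labels give only a replicate number, and whether HFD and LFD arrays of the same number shared a processing step was not tested. With the replicate number as a block, 10 genes of the list passed for HFD+As against LFD and 5 for HFD+As against LFD+As. In the first of these, 9 of the 11 reported genes passed, Cps1 (adjusted p 0.0573) and Kynu (0.0557) did not, and Cth did. For LFD+As against LFD, a block on these 4 arrays alone, added after the data were seen, called 67 genes and a block with crossed numbers 25, with 0 of the list in either.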
